A study of Arabidopsis thaliana and Arabidopsis thaliana x Arabidopsis arenosa with 9 samples.

Results

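Type I MADS-box genes encode transcription factors of seed and gametophyte development, and 10 of them were followed by locus in whole seeds of Arabidopsis thaliana at 3 days after pollination. The 10 members, of 33602 loci in the count table, were taken by name, with earlier results of these data known: AGL62 (AT5G60440), AGL36 (AT5G26650), AGL90 (AT5G27960), AGL35 (AT5G26630), PHERES1 (PHE1, AT1G65330), PHERES2 (PHE2, AT1G65300), AGL40 (AT4G36590), AGL28 (AT1G01530), AGL45 (AT3G05860) and AGL92 (AT1G31640). The seeds came from a pair of reciprocal crosses between the accessions Col-0 and C24. In ColA9 X C24 the seed parent was a Col-0 line made male sterile by a hemizygous construct and the pollen parent was wild-type C24. In C24A9 X Col-0 the seed parent was the male-sterile C24 line and the pollen parent was wild-type Col-0. Each cross had 2 libraries, called replicates 1 and 2, and the study's methods state that replicate 2 of each cross was treated with duplex-specific nuclease to lower its most abundant RNAs. Seed coat and cytoplasm carry the genotype of the seed parent, so the genotype of the maternal tissue, the direction of the cross and the pollen parent cannot be told apart here. Reads of both accessions were mapped to the same TAIR10 cDNA, against which the paper reports SNPs in C24. For a gene read mainly from 1 parental copy, a difference in mapping between C24 and Col-0 reads cannot be told apart from these either, and was not tested.

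The classes of type I MADS-box proteins include M-alpha and M-gamma, and M-alpha proteins tend to pair with M-gamma proteins. AGL62, AGL40 and AGL28 belong to M-alpha. PHE1, PHE2, AGL36, AGL90, AGL35, AGL45 and AGL92 belong to M-gamma. Several type I genes are transcribed in the endosperm, the nourishing tissue of the seed, while its nuclei still divide without forming cell walls. AGL62 holds back endosperm cellularization, and mutants that lack it form walls too early. PHE1 is an imprinted gene read mainly from the paternal copy and AGL36 one read mainly from the maternal copy. Both are kept in check by the seed form of Polycomb repressive complex 2, which places a repressive mark on histones.

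Sequence decides how far reads can be told apart, and the members differ in this. Of the windows of 80 bases along each longest transcript, PHE1 shared 4.10% with PHE2, its neighbour on chromosome 1, and PHE2 shared 4.82% with PHE1. AGL36 shared 3.48% with AGL90 and AGL90 shared 4.52% with AGL36, and the other 6 members shared 0% with any locus. Positions and sequences are those of the RefSeq annotation of TAIR10.1, 5′ to 3′ on the coding strand. The first 90 coding bases of the related members are shown to let these families be seen, with capitals at the bases that differ from the first sequence of each group. The other members lie at chr5:9350812-9351620 (AGL35, 1 exon), chr3:1751385-1752407 (AGL45, 2 exons) and chr1:11322692-11324176 (AGL92, 2 exons). The coding sequence of the M-alpha group starts at chr5:24306329-24306418 (plus strand) in AGL62, chr4:17262100-17262189 (minus) in AGL40 and chr1:193573-193662 (minus) in AGL28.
AGL62: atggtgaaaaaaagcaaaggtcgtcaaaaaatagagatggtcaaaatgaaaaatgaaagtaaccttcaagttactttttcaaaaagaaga
AGL40: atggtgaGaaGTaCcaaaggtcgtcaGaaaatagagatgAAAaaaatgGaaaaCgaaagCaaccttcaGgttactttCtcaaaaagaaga
AGL28: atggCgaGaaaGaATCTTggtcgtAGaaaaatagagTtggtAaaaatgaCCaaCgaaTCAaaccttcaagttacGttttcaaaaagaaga
The M-gamma pairs start at chr1:24267231-24267320 (minus) in PHE1, chr1:24254929-24255018 (plus) in PHE2, chr5:9343785-9343874 (plus) in AGL36 and chr5:9992681-9992770 (minus) in AGL90.
PHE1: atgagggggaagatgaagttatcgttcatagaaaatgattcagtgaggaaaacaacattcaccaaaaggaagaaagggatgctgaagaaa
PHE2: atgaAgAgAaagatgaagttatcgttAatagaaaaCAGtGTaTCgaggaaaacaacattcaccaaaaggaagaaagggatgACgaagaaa
AGL36: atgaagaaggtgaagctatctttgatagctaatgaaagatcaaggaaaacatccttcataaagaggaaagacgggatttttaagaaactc
AGL90: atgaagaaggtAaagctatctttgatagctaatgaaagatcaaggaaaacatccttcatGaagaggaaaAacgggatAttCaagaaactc

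Within these 90 bases PHE2 differed from PHE1 at 13 bases and AGL90 from AGL36 at 5, and AGL40 and AGL28 differed from AGL62 at 13 and 19. Over the first 180 coding bases, AGL36 and AGL90 were 96.1% identical, PHE1 and PHE2 85.6% and AGL62 and AGL40 81.1%. The longest run that PHE1 and PHE2 hold in common had 120 bases, and it is printed because a read lying inside it fits either gene. It lies at chr1:24266495-24266614 (minus) in PHE1 and chr1:24255632-24255751 (plus) in PHE2.
PHE1 and PHE2: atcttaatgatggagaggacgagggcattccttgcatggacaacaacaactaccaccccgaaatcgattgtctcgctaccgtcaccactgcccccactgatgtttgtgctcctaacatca
The run common to AGL36 (chr5:9344564-9344665, plus) and AGL90 had 102 bases and crosses the annotated intron of AGL90.
AGL36 and AGL90: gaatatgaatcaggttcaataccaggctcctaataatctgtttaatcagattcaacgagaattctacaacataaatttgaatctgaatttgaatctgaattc
How reads that fit several loci were counted is not given in the sources used here, so part of the counts of these 4 genes is uncertain.

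The libraries held 3538335 to 6498145 counted reads. Replicate 2 of C24A9 X Col-0 stood apart, because 3270 of 4598 protein-coding loci with 0 reads in every other column had reads in it (71.1%), against 2.71% to 5.01% for the same count in the other 3 libraries. Its reads on these loci came to 3.88 per 1000 bases of transcript, with a median of 2 reads a locus, a 95th percentile of 16.2 and a highest of 70. Of the marker genes for seed tissues, the 6 endosperm markers had reads in every library except IKU2, which was at 0 in replicate 1 of ColA9 X C24. Their summed level on the TMM scale (reads per 1000000 after edgeR's correction of the library totals) was 38.2 and 90.5 in ColA9 X C24 and 67.4 and 113 in C24A9 X Col-0, replicate 1 first. The 6 seed coat markers summed to between 4568 and 14759, and the highest was replicate 1 of C24A9 X Col-0. The 5 embryo markers summed to 29.9 and 24.5 in replicate 2 of ColA9 X C24 and of C24A9 X Col-0, against 3.53 and 5.22 in the replicates 1. LEC1 alone gave 15.3 and 14.4 of these replicate 2 sums, and WOX2 had 2 reads in each ColA9 X C24 library. Among the endosperm markers, FWA gave 164 of the 249 reads in replicate 1 of ColA9 X C24. MINI3 fell from 3.99 in replicate 1 to 0.898 in replicate 2 of that cross, and stood at 7.59 and 9.42 in C24A9 X Col-0. The 5 pollen markers summed to 19.8 in replicate 2 of C24A9 X Col-0 and to between 0.949 and 2.02 elsewhere, and PPME1 was at 0 in the other 3. In whole seeds, fewer cells of a type and less RNA per cell cannot be told apart.

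All members were rare transcripts. Together they took 293 reads in replicate 1 and 288 in replicate 2 of ColA9 X C24, and 203 in replicate 1 and 711 in replicate 2 of C24A9 X Col-0. Per 1000000 counted reads this is 45.1 (95% Wilson interval 40.2 to 50.6) and 81.4 (72.5 to 91.4) in ColA9 X C24, and 33.3 (29.0 to 38.2) and 129 (120 to 139) in C24A9 X Col-0. The sum was higher in replicate 2 of each cross, by more than the counting error that these intervals cover, and highest in the library that stood apart. In ColA9 X C24 this was not a rise of most members. AGL40 went from 11.7 to 38.2 there, while 5 of the 9 members with reads in all libraries were lower in replicate 2 and 4 higher. On library totals the median log2 fold change of all genes tested, replicate 2 over replicate 1, was itself 0.59. On the TMM scale the sums were 45.0 and 64.7 in ColA9 X C24, against 48.2 and 115 in C24A9 X Col-0. AGL40 gave the most member reads in 3 of the libraries, with 25.9% and 46.9% of them in ColA9 X C24 and 33.1% in replicate 2 of C24A9 X Col-0. PHE1 led in replicate 1 of C24A9 X Col-0 with 32.5%.

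**Figure D1:**
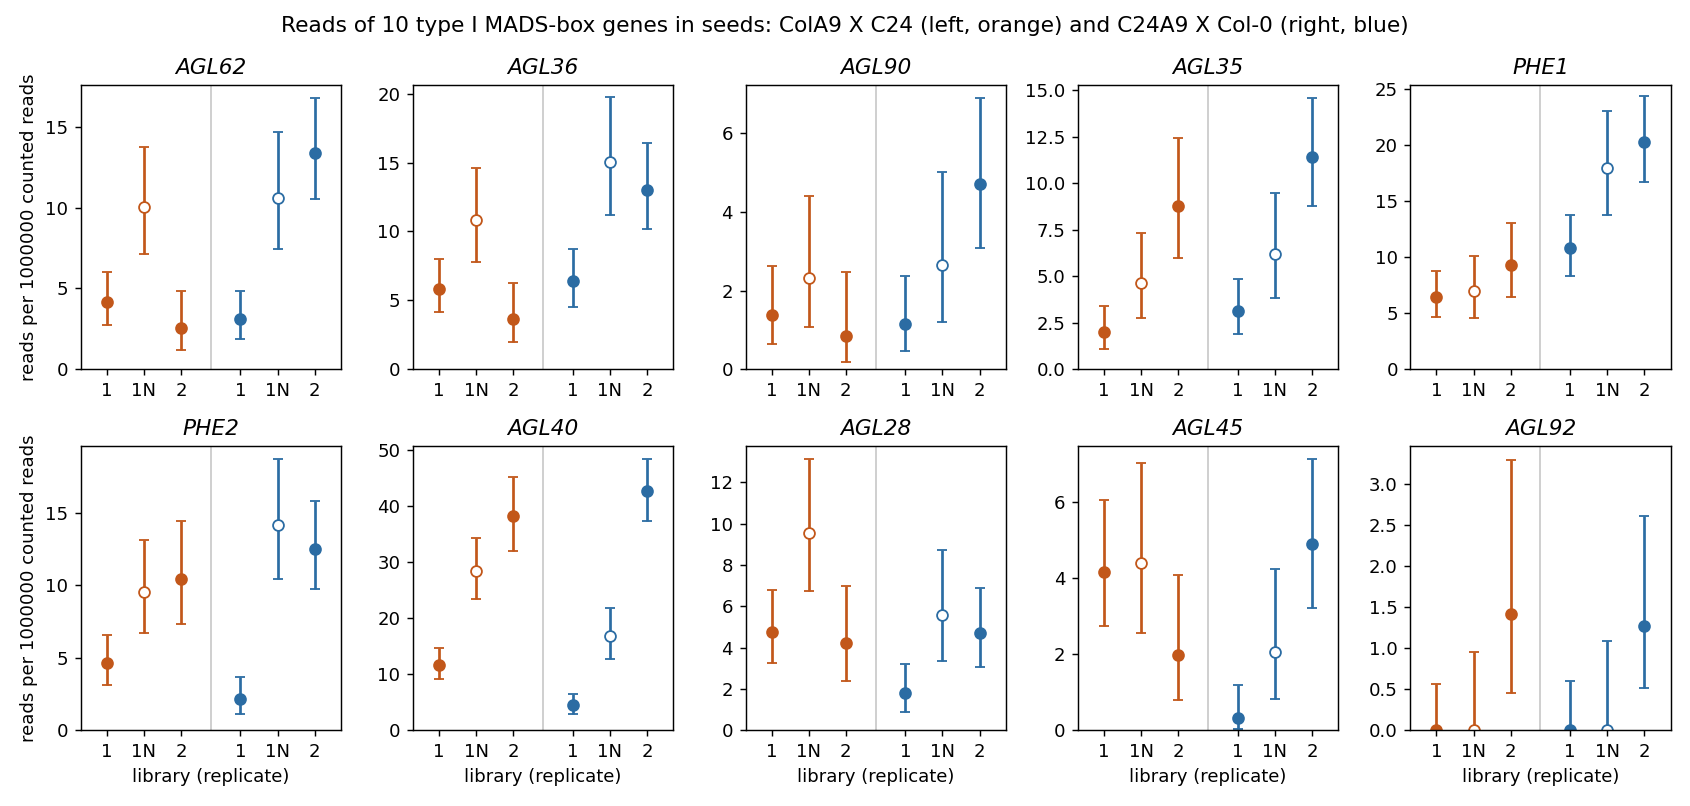
Reads per 1000000 counted reads (y axis) of each member in the libraries (x axis: replicate), with ColA9 X C24 in orange left of C24A9 X Col-0 in blue. Filled points are the 4 libraries, open points the columns marked N, and bars exact 95% Poisson intervals of counting error. PHE1 sits at 6.46 and 9.33 in ColA9 X C24, against 10.8 and 20.3 in C24A9 X Col-0, and AGL40 is higher in replicate 2 than in replicate 1 of each cross.

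Levels of different genes were compared per 1000 bases of the longest transcript and per 1000000 reads, as the mean ± SD over the 4 libraries. These means mix the replicates 2, stated to be treated to lower abundant RNAs, with the untreated replicates 1. AGL40, an M-alpha gene close to AGL62 in sequence, stood first with 24.4 ± 19.1. PHE1 followed with 10.9 ± 5.54, PHE2 with 7.99 ± 5.23, AGL35 with 7.81 ± 5.56 and AGL36 with 5.90 ± 3.29. AGL28 stood at 5.12 ± 1.85, AGL45 at 3.06 ± 2.25, AGL62 at 2.84 ± 2.50, AGL90 at 2.10 ± 1.87 and AGL92 at 0.480 ± 0.556. The ranges over the libraries of every pair of neighbours in this order overlapped. AGL40 was first in 3 libraries and had rank 3 in replicate 1 of C24A9 X Col-0, where PHE1 was first. AGL62 has a long transcript, of 2044 bases of which 900 are coding, and per 1000 coding bases its mean was 6.45 and its rank 6 rather than 8.

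The reciprocal crosses were compared to ask whether the direction of the cross goes with the level of each gene. Of the 10 members, 8 had at least 10 reads in at least 2 libraries and were tested. AGL90 and AGL92 were too rare. With edgeR's quasi-likelihood test and Benjamini-Hochberg adjustment over 16779 genes, 0 members passed in either direction, and so did 0.0% of all genes tested (adjusted p under 0.05). At an unadjusted p under 0.05 the test gave 1251 genes (7.46%), PHE1 among them, and DESeq2 gave 302 genes at its adjusted threshold but no member. With the replicate number as a block, 1118 genes passed (6.66%), again with no member. The members' median log2 fold change, ColA9 X C24 over C24A9 X Col-0, was -0.46 without and -0.40 with the block, against -0.01 and 0.01 over all genes tested. Without replicate 2 of C24A9 X Col-0 it was -0.04 over the 7 members that could be tested, against 0.07 over all genes, with 0 genes called. Without replicate 2 of ColA9 X C24 the count of genes called was 46, also with no member.

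PHE1, the paternally expressed regulator, showed the most even difference on the TMM scale. It had 42 and 33 reads in ColA9 X C24, against 66 and 112 in C24A9 X Col-0, and on the TMM scale 6.45 and 7.41 in ColA9 X C24, against 15.7 and 18.2 in C24A9 X Col-0. Both libraries of ColA9 X C24 lay below both of C24A9 X Col-0. The means were 6.93 ± 0.68 in ColA9 X C24 and 16.9 ± 1.79 in C24A9 X Col-0 (SD, n = 2 each). The log2 fold change was -1.29 ± 0.40 (SE), with an adjusted p of 0.535 in edgeR and 0.0736 with the replicate block, so PHE1 did not pass in either fit. Within replicate 1 alone the log2 ratio of the crosses was -1.28 and within replicate 2 alone -1.29. Leaving out each library in turn gave -1.39 to -1.18, and without replicate 2 of C24A9 X Col-0 it was -1.18 ± 0.50. Its 112 reads in that library were 26.7 times what a transcript of its length would hold at the mean density of the silent loci. Single silent loci held up to 70 reads there, and the part of such reads in the difference of PHE1 was not tested.

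AGL36, AGL62 and AGL90 also had both ColA9 X C24 libraries below both C24A9 X Col-0 libraries on the TMM scale, but in these 3 the distance lay largely in replicate 2. AGL36, the maternally expressed gene, stood at 5.84 and 2.92 in ColA9 X C24, against 9.25 and 11.7 in C24A9 X Col-0. Its log2 fold change was -1.24 ± 0.56 (adjusted p = 0.729 in edgeR, 0.181 with the block). Among the 8 tested members, AGL36, AGL62 and PHE1 were the 3 with ColA9 X C24 wholly lower, and 0 had it wholly higher. Of all genes tested, 17.2% had ColA9 X C24 wholly lower and 19.6% wholly higher. On library totals the crosses overlapped in AGL62 and AGL90, whose log2 ratios within replicate 1 were then 0.42 and 0.27, and 2 tested members, AGL36 and PHE1, remained wholly lower, against 10.01% of all genes tested.

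AGL62, which holds back cellularization, had 27 and 9 reads in ColA9 X C24, against 19 and 74 in C24A9 X Col-0. On the TMM scale this is 4.15 and 2.02 in ColA9 X C24, against 4.51 and 12.01 in C24A9 X Col-0, so the replicates 1 of the crosses almost coincide. The log2 fold change was -1.41 ± 0.74 (adjusted p = 0.778 in edgeR) with all libraries and -0.53 ± 0.79 without replicate 2 of C24A9 X Col-0. At the density of the silent loci a transcript as long as that of AGL62 would hold 7.94 reads in that library, where it had 74. The part of those reads in the difference was not tested. AGL90 had 9 and 3 reads in ColA9 X C24, against 7 and 26 in C24A9 X Col-0, and the silent loci would give 3.74 in the last of these.

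AGL35, PHE2, AGL40, AGL28 and AGL45 had crosses whose libraries overlapped. AGL35, which lies on chromosome 5 close to AGL36, had 13 and 31 reads in ColA9 X C24, against 19 and 63 in C24A9 X Col-0. Its log2 fold change was -0.75 ± 0.81 (adjusted p = 0.896 in edgeR). PHE2, the neighbour of PHE1, stood at 4.61 and 8.31 in ColA9 X C24, against 3.08 and 11.2 in C24A9 X Col-0, with a log2 fold change of -0.17 ± 0.75. Without replicate 2 of C24A9 X Col-0 the value of PHE2 was 1.05 ± 0.78, and with the block 0.02. No direction between the crosses can be given for PHE2.

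AGL40 had 76 and 135 reads in ColA9 X C24, against 27 and 235 in C24A9 X Col-0, a log2 fold change of -0.10 ± 0.87 that became 1.70 ± 0.77 without replicate 2 of C24A9 X Col-0 and 0.18 with the block. AGL28, of the same class, had 31 and 15 reads in ColA9 X C24, against 11 and 26 in C24A9 X Col-0 (log2 fold change 0.25 ± 0.70). AGL45 had 27 and 7 reads in ColA9 X C24, against 2 and 27 in C24A9 X Col-0 (0.21 ± 1.17). Within replicate 1, AGL45 was 3.13 higher in ColA9 X C24 on the log2 scale, and within replicate 2 the same ratio was -1.48. For AGL45 the spread between libraries of the same cross was thus larger than the fitted difference. AGL92 had 0 and 5 reads in ColA9 X C24, against 0 and 7 in C24A9 X Col-0.

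**Figure D2:**
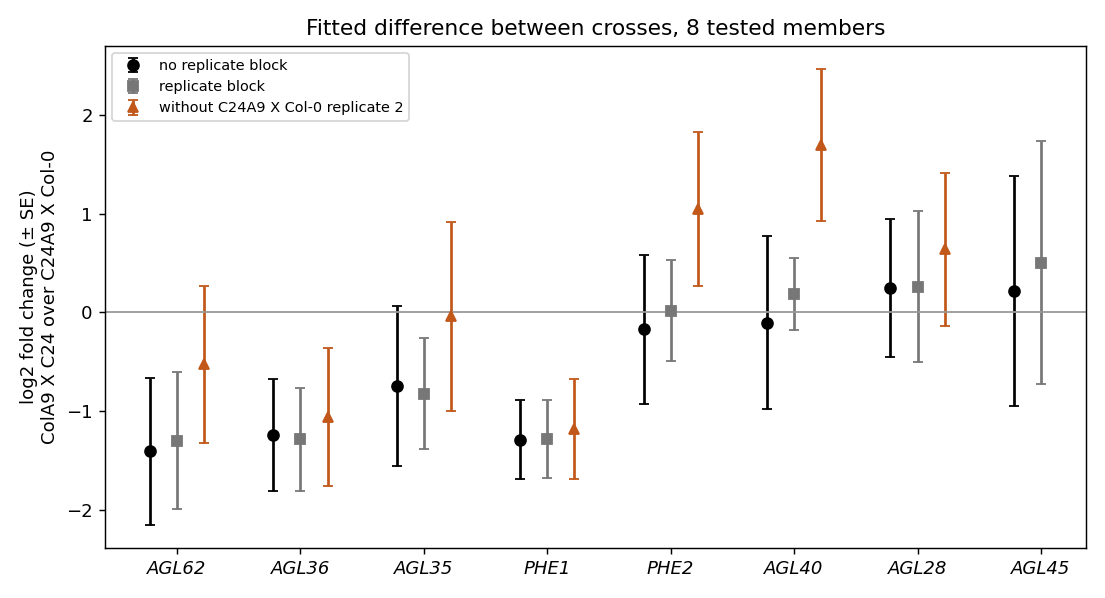
Fitted log2 fold change of ColA9 X C24 over C24A9 X Col-0 (y axis, ± SE) for the 8 tested members (x axis), without the replicate block (circles), with it (squares) and without replicate 2 of C24A9 X Col-0 (triangles, absent for AGL45, which was then below the read minimum). PHE1 lies between -1.29 and -1.18 in all 3, whereas AGL40 moves between -0.10 and 1.70, and no value passed the adjusted threshold.

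Since PHE1 and PHE2 were read in the same libraries, their ratio does not depend on scaling. PHE1 held 58.3% of the pair's reads in replicate 1 (95% Wilson interval 46.8% to 69.0%) and 47.1% in replicate 2 of ColA9 X C24 (35.9% to 58.7%). In C24A9 X Col-0 it held 83.5% in replicate 1 (73.9% to 90.1%) and 61.9% in replicate 2 (54.6% to 68.6%). The shares were lower in both ColA9 X C24 libraries. Between libraries of the same replicate number, the intervals of the crosses did not overlap in replicate 1 but overlapped in replicate 2. The interval of replicate 1 of ColA9 X C24 also overlaps that of replicate 2 of C24A9 X Col-0, which differs from it by the stated treatment too. In AGL36 and AGL90 the share was even. AGL36 held 80.9% and 81.2% of the pair's reads in ColA9 X C24, against 84.8% and 73.5% in C24A9 X Col-0, and all 4 intervals overlapped.

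**Figure D3:**
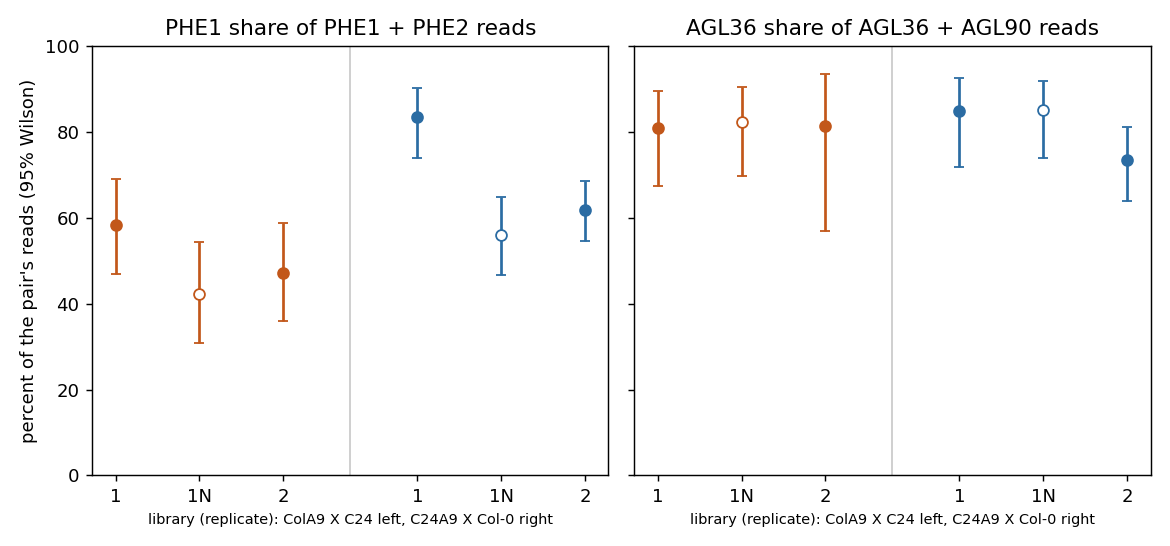
Percent of a pair's reads that fell on PHE1 rather than PHE2 (left) and on AGL36 rather than AGL90 (right), by library (x axis, ColA9 X C24 in orange left of C24A9 X Col-0 in blue, open points for the columns marked N). Bars are 95% Wilson intervals of counting error. PHE1 ranges from 42.2% to 83.5%, and AGL36 from 73.5% to 85.0%.

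Replicate 2 was set against replicate 1, with the cross as a term, because the replicates differ by the stated nuclease treatment. With 1 library per cross and replicate number, the treatment and any other difference between these seed samples cannot be told apart. AGL40 was the member that passed, as 1 of 8 tested. It had 135 reads in replicate 2, against 76 in replicate 1, of ColA9 X C24 and 235 in replicate 2, against 27 in replicate 1, of C24A9 X Col-0. On the TMM scale it stood at 30.3 and 38.1 in the replicates 2 and at 11.7 and 6.41 in the replicates 1, so that the groups did not overlap. The log2 fold change was 1.93 ± 0.37 (SE), with an adjusted p of 0.00605 in edgeR and 0.00815 in DESeq2. Of all genes tested, 1663 passed (9.91%), of which 542 (3.23%) rose and 1121 (6.68%) fell in replicate 2.

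The call on AGL40 did not hold without the cross term, where the log2 fold change was 1.91 (adjusted p = 0.314 in edgeR, with 0 genes called of all), or with library totals in place of TMM, where it was 2.46 (adjusted p = 0.058). Fits without 1 library had to drop the cross term as well, so they do not show what the call owes to a library. In them its value was 1.57 to 2.40 and did not pass, and without replicate 2 of C24A9 X Col-0 it was 1.74 ± 0.65 with 35 genes called of 15699. The count of all genes called without a library was 0 without either replicate 1 and 20 without replicate 2 of ColA9 X C24. The endosperm and embryo markers summed higher in the replicates 2, as given above, though not every marker rose. The part of this in the result of AGL40 was not tested.

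AGL35 and PHE2 lay in the same direction without passing. AGL35 stood at 6.96 in ColA9 X C24 and 10.2 in C24A9 X Col-0 in the replicates 2 on the TMM scale, above its replicates 1, and had a log2 fold change of 1.47 ± 0.57 (adjusted p = 0.128 in edgeR). PHE2 had a log2 fold change of 1.33 ± 0.53 (adjusted p = 0.14 in edgeR). AGL40, AGL35 and PHE2 were the 3 of 8 tested members wholly higher in replicate 2, against 25.0% of all genes tested, and 0 were wholly lower, against 22.3%. AGL92 had 5 and 7 reads in the replicates 2 and 0 in the replicates 1. With 3 counts allowed for each 0, the observed ratio on library totals was 3.06-fold in ColA9 X C24 and 2.58-fold in C24A9 X Col-0. These ratios leave out the counting error of the 5 and 7 reads. The lower exact Poisson limits of these reads were 0.459 per 1000000 in ColA9 X C24 and 0.510 in C24A9 X Col-0. The levels allowed for the 0 counts were close to these limits, at 0.462 and 0.492. No least fold change of this size can therefore be given. At the density of the silent loci a transcript of its length would hold 5.42 of the 7 reads in replicate 2 of C24A9 X Col-0.

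The other members differed between the crosses in how the replicates stood to each other, which is shown by the plot of replicate 2 over replicate 1. In ColA9 X C24, 4 of 9 members had a higher level in replicate 2 and 5 a lower one, with a median log2 ratio of -0.50 on the TMM scale. In C24A9 X Col-0 all 9 were higher in replicate 2, with a median of 1.35. The share of all tested genes that rose within each cross was not computed, so these counts are not read as a trait of the members. AGL62 stood at -1.04 in ColA9 X C24 and 1.41 in C24A9 X Col-0, and AGL45 at -1.40 and 3.21. PHE1 was the member with nearly equal ratios, 0.20 in ColA9 X C24 and 0.22 in C24A9 X Col-0. The fitted values of AGL62 (0.31 ± 0.69), AGL36 (-0.26 ± 0.52), PHE1 (0.21 ± 0.39), AGL28 (0.08 ± 0.76) and AGL45 (0.58 ± 1.23) did not pass, and that of AGL36 was 0.26 with library totals.

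**Figure D4:**
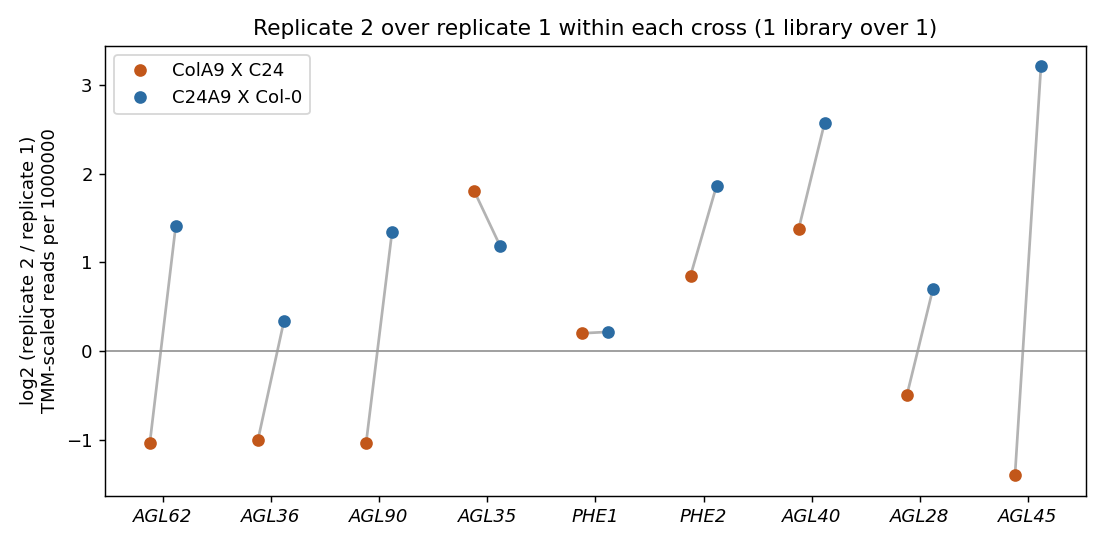
Log2 ratio of replicate 2 over replicate 1 on the TMM scale (y axis) within ColA9 X C24 (orange) and C24A9 X Col-0 (blue) for the 9 members with reads in all libraries (x axis), each point 1 library over 1. AGL40, AGL35 and PHE2 lie above 0 in each cross, whereas AGL62, AGL36, AGL90, AGL28 and AGL45 lie below 0 in ColA9 X C24 and above 0 in C24A9 X Col-0.

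The table also holds a second column under the name of replicate 1 of each cross, marked N, whose meaning is not given in the sources used here. They were not used in any test. All 9 members with reads stood higher per 1000000 reads in the column marked N than in its unmarked partner, with a median log2 ratio of 1.00 in ColA9 X C24 and 1.63 in C24A9 X Col-0. These ratios are on library totals and were not computed over all loci, so they are not read as a trait of the members. AGL92 was at 0 in each. The members' sum was 86.7 per 1000000 reads in the marked column of ColA9 X C24 and 91.0 in that of C24A9 X Col-0. PHE1 stood at 6.96 in the marked column of ColA9 X C24, against 18.0 in that of C24A9 X Col-0, a log2 ratio of -1.37. AGL62 had 39 reads in the marked column of ColA9 X C24, against 36 in that of C24A9 X Col-0, a log2 ratio of -0.08. The share of PHE1 in the reads of PHE1 and PHE2 was 42.2% in the marked column of ColA9 X C24 and 56.0% in that of C24A9 X Col-0. The last of these lies below the 58.3% of replicate 1 of ColA9 X C24, so with these columns the crosses overlapped in this share.

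The remaining type I genes give the family around the members. Of 49 listed, 43 had a locus and 12 were tested, against 8 of the 10 members. Of the 43, 5 had 0 reads in all libraries and 16 had reads in replicate 2 of C24A9 X Col-0 but in no other of the 4 libraries, with at most 21 reads each. Of these 16, 3 also had reads in a column marked N. No member had reads in that library alone. Between the crosses 0 of the 12 passed without the block, and with the block 3 were lower and 0 higher in ColA9 X C24, against 4.42% and 2.24% of all genes tested. AGL96 had 53 and 13 reads in ColA9 X C24, against 197 and 115 in C24A9 X Col-0, a log2 fold change of -2.58 ± 0.36 with the block (adjusted p = 0.000943 in edgeR, 0.468 without the block). AGL64 had 12 and 0 reads in ColA9 X C24, against 57 and 27 in C24A9 X Col-0 (adjusted p = 0.0283 with the block). AGL58 had 0 and 3 reads in ColA9 X C24, against 43 and 27 in C24A9 X Col-0 (adjusted p = 0.0479 with the block). These 3 genes were picked by the fit with the block, so it adds no support that their crosses also did not overlap in raw reads, which are not scaled for library size.

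AGL49 and AGL87 were the other 2 with most reads. AGL49 had 57 and 40 reads in ColA9 X C24, against 106 and 60 in C24A9 X Col-0, and did not pass in either fit. AGL87 had 116 reads in replicate 2, against 19 in replicate 1, of ColA9 X C24, and 84, against 19, in C24A9 X Col-0. It rose in replicate 2 with a log2 fold change of 2.39 ± 0.48 (adjusted p = 0.00803 in edgeR), as AGL40 did, and AGL96 fell by 1.38 on the log2 scale (adjusted p = 0.0271). Thus 1 of the 12 rose and 1 fell in replicate 2, against 3.23% and 6.68% of all genes tested, and without the cross term 0 genes were called.

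Of the regulators upstream of these genes, 7 of 7 were tested and 0 passed between the crosses in either fit, against 0.0% of all genes without and 6.66% with the block, and their median log2 fold change was 0.03. They are the Polycomb subunits FIS2, MEA, FIE, MSI1 and SWN, the DNA demethylase DME and the maintenance DNA methyltransferase MET1. FIS2, the zinc finger subunit of the seed complex, stood at 4.30 and 23.4 in ColA9 X C24, against 6.17 and 20.5 in C24A9 X Col-0 on the TMM scale. It was the 1 regulator of 7 that rose in replicate 2, against 3.23% of all genes tested, with a log2 fold change of 2.08 ± 0.40 (adjusted p = 0.00603 in edgeR). FIS2 and MEA are also among the 6 endosperm markers, whose sum was higher in replicate 2 of each cross. MEA, its histone methyltransferase, had 16 and 15 reads in ColA9 X C24, against 5 and 46 in C24A9 X Col-0. FIE (log2 fold change 0.12 between the crosses), MSI1 (0.45), SWN (0.33), DME (-0.002) and MET1 (-0.01) did not pass in either comparison.

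Auxin made in the endosperm is carried to the seed coat, and 2 genes of this route were listed. ABCB10 had 12 and 7 reads in ColA9 X C24, against 49 and 16 in C24A9 X Col-0, with a log2 fold change of -2.02 ± 0.92 (adjusted p = 0.732 in edgeR, 0.232 with the block). YUC10, an auxin synthesis gene, had 4 and 6 reads in ColA9 X C24, against 4 and 17 in C24A9 X Col-0, and was too rare to test.

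Among the 16771 other tested genes, the patterns over the 4 libraries nearest to that of AGL62 belonged to AT5G02460, AT3G01860 and GNL2, at distances of 0.133 to 0.176 in centred log2 reads per 1000000. Nearest to PHE1 were AT4G10280, RBP47C' and AT2G24280, at 0.0587 to 0.177. A distance under 0.5 was found for 40 genes around AGL62 and 186 around PHE1, so neither pattern was particular to its gene. Among the members themselves, the closest pairs were PHE2 with AGL40 (0.69), AGL62 with AGL36 (0.72) and AGL36 with PHE1 (0.79), and the sequence pair PHE1 and PHE2 lay at 1.75.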

How the data were processed

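Whole seeds at 3 days after pollination were sequenced by the authors, who mapped trimmed reads with BWA onto the cDNA of every TAIR10 gene model and summed the raw read counts of a locus over its models. Deposited values are these counts, in 6 columns, of which 4 match the mRNA-seq libraries and 2 are marked N. The paper and the labels state different read lengths (80 and 100 bases). The 5 amplicon libraries were not analysed here. C24 and Col-0 reads were not separated. The members and lists were chosen with earlier results of these data known.

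A gene was tested where 2 or more libraries had 10 or more reads of it, with the quasi-likelihood test of edgeR 4.0.16 (R 4.3.3, TMM factors, robust, two-sided, Benjamini-Hochberg, adjusted p under 0.05). Each SE is the size of the log2 fold change over the root of F. Alternatives were DESeq2 1.42.0, RLE factors, library totals, no filter, the replicate block and each library left out. The replicate numbers pair the libraries, because the methods give replicate 2 of each cross a shared treatment, and the change between replicates correlated across crosses (Pearson r = 0.553 over 16779 genes, which are not independent). The replicates are stated to be biological.

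Levels are reads per 1000000 counted reads, on library totals or on TMM-scaled totals. Intervals are 95% Wilson or exact Poisson, and cover counting error only. A count of 0 allows up to 3 counts, 0.462 to 0.848 per 1000000. Positions, lengths, symbols and sequences are from the TAIR10.1 genome and its RefSeq annotation, which matched 32835 of 33602 loci (97.7%) and was made later than the gene models of the counts. Shared windows are exact matches between longest transcripts. Named genes are the 10 members, further type I genes with an adjusted p under 0.05 in the fit without or with the block and the 3 with most reads, all genes of the regulator and auxin lists, the 3 nearest patterns to AGL62 and to PHE1, and any locus sharing 80-base windows with a member.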

Additional observations from a re-analysis of the deposited data

Results flagged for a closer look

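In 5 members replicate 2 stood lower than replicate 1 in ColA9 X C24 and higher in C24A9 X Col-0, with 1 library on each side. The log2 ratio of replicate 2 over replicate 1 in ColA9 X C24 minus that in C24A9 X Col-0 was -2.45 for AGL62, -1.34 for AGL36, -2.38 for AGL90, -1.19 for AGL28 and -4.61 for AGL45, all on the TMM scale. These differences were not tested, since each cross has 1 library per replicate number, and the share of all tested genes with this pattern was not computed. Replicate 2 of C24A9 X Col-0 is the library with reads on loci silent elsewhere, at 3.88 reads per 1000 bases, and the part of this in the 5 values was not tested.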

How the results depend on the processing

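Between the crosses, 0 genes passed in edgeR without the block and with RLE factors, 302 with DESeq2, 585 with no filter, 4 with library totals, 1118 with the replicate block, 819 with the replicate block in DESeq2, 194 with the replicate block on library totals, and 0 to 46 without 1 library. Between replicate 2 and replicate 1, 1663 passed, against 0 without the cross term, 245 with library totals and 0 to 35 without 1 library, where the cross term was dropped. A lone library was assumed to vary like the others. Library totals moved the median log2 fold change of all genes from -0.01 to 0.29 between the crosses and from 0.07 to 0.59 between replicates, and all members are read against this. The replicate block changed no call of a member.

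PHE1, AGL62, AGL36 and AGL35 kept their direction between the crosses in all 11 alternatives. PHE2 turned to 0.018 with the replicate block, 0.013 with library totals, 0.011 with the block in DESeq2 and 0.35 with the block on library totals, and AGL40 to 0.18, 0.056, 0.19 and 0.53 under the same 4 settings. Without 1 library the values between the crosses ran from -0.80 to 1.05 for PHE2, -0.95 to 1.70 for AGL40, -0.60 to 0.72 for AGL45 and -0.050 to 0.64 for AGL28. Between replicates AGL36 turned to 0.26 with library totals, and without 1 library the values ran from -1.09 to 1.48 for AGL62, -1.35 to 0.65 for AGL36, -0.44 to 0.88 for AGL45, -0.31 to 0.53 for AGL28 and -0.56 to 1.01 for PHE1. The cause was not tested. Windows of 27 bases in place of 80 raised the shared part of AGL36 to 30.3%, AGL90 to 38.2%, PHE1 to 12.6% and PHE2 to 14.7%. Members with under 30 reads in most libraries carry wide counting error, and AGL90 and AGL92 could not be tested at this depth.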
